A study of Mus musculus with 24 samples.

Results

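The late-appearing mammary tumors of this series were used to ask whether the diet eaten during puberty left a mark on tumor gene expression whichever diet followed in adulthood. Of 24 tumor arrays, 18 carried a Late label and entered the comparison, 9 from mice with a peripubertal high-fat diet (HFD) and 9 from mice with a peripubertal low-fat diet (LFD). All mice were female BALB/c, an inbred strain that resists obesity, and every tumor arose after the carcinogen 7,12-dimethylbenz[a]anthracene (DMBA) was given by mouth during puberty. The diets began at weaning age, and the HFD was rich in saturated animal fat. The labels divide the pubertal arms by adult diet. The peripubertal HFD arm holds 6 tumors of mice that stayed on HFD (HFD Late) and 3 of mice moved to LFD as young adults (HFD-LFD Late). The peripubertal LFD arm holds 5 tumors of mice that stayed on LFD (LFD Late) and 4 of mice moved to HFD (LFD-HFD Late). The labels do not say whether tumors came from separate animals, so p values measure the spread between these tumors. Some mice on continuous diets came from an earlier experiment of the same group, whereas the switched groups were new, and which tumors these were was not known here.

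Puberty is when the mammary ducts elongate through the fat pad, led by proliferating terminal end buds under the control of estrogen, growth hormone and local growth factors. The dividing ductal cells of this period are sensitive to carcinogens, and DMBA, which the liver and the gland itself turn into a DNA-binding form, produces mammary carcinomas ranging from glandular and papillary to adenosquamous types. Such a carcinoma contains luminal and basal epithelial cells, keratinizing cells where it is squamous, and a stroma of fibroblasts, vessels, fat cells and immune cells. An array of whole tumor RNA reads all of them together, so that fewer cells of a type and less RNA per cell cannot be told apart.

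Each array measured tumor RNA in the Cy5 channel against a common reference RNA pooled from mouse cell lines in Cy3, and values here are log2 ratios of Cy5 over Cy3. The labels assign Cy5 to the tumors whereas the study's methods assign it to the reference. The labels' direction was kept, because Cy5 varied more between the 24 arrays (median SD 0.472 on the log2 scale) than Cy3 (0.189), and 2 probes of Y chromosome genes had log2 ratios of -5.06 to -2.32 in these female tumors. Every signed value below therefore runs opposite to the direction that the methods would give. Between 66.1% and 89.2% of spots were well above background in Cy5 on the late arrays (median 71.8%), and the number of tumors limits the precision. The epithelial markers Krt8 and Cdh1 were well above background in all 18 tumors. On 7 arrays a band of spots was dimmed in Cy5 and was set to missing, 28.3% of the spots at the end of slide 6 (MSU_24, MSU_28, MSU_93 and MSU_96) and 20.2% at the start of slide 7 (MSU_42, MSU_59a and MSU_59b). The probes of 9999 of the 20810 genes tested lay in such rows, so that many genes have 14 or 15 values. The arrays were scanned in 3 sessions. The first held 8 late tumors, all on continuous diets, the second 3, all on switched diets, and the third 7 from all 4 groups. Both pubertal arms were present in every session, with 4 against 4, 2 against 1 and 3 against 4 tumors of peripubertal HFD against LFD. In the first and second sessions the arms lay on separate slides, so that peripubertal diet and slide cannot be told apart there. Only in the third did slides hold both arms.

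No gene passed the test for peripubertal diet. With adult diet as a covariate, limma with Benjamini-Hochberg adjustment called 0 of 20810 genes (0%), with a lowest adjusted p of 0.832. Before adjustment, 1193 genes (5.73%) had a p under 0.05, 579 of them higher after peripubertal HFD (2.78%) and 614 lower (2.95%). The median gene differed by 0.139 on the log2 scale in either direction, less than the median standard error of 0.182. The count of called genes was also 0 under every alternative processing, in the last scan session alone, and without each tumor in turn. The first principal component held 29.6% of the variance between the 18 tumors, and peripubertal diet accounted for 14.2% of that component. Pairs of tumors with the same peripubertal diet correlated at a median of 0.818 over genes, and pairs with different peripubertal diets at 0.833.

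**Figure D1:**
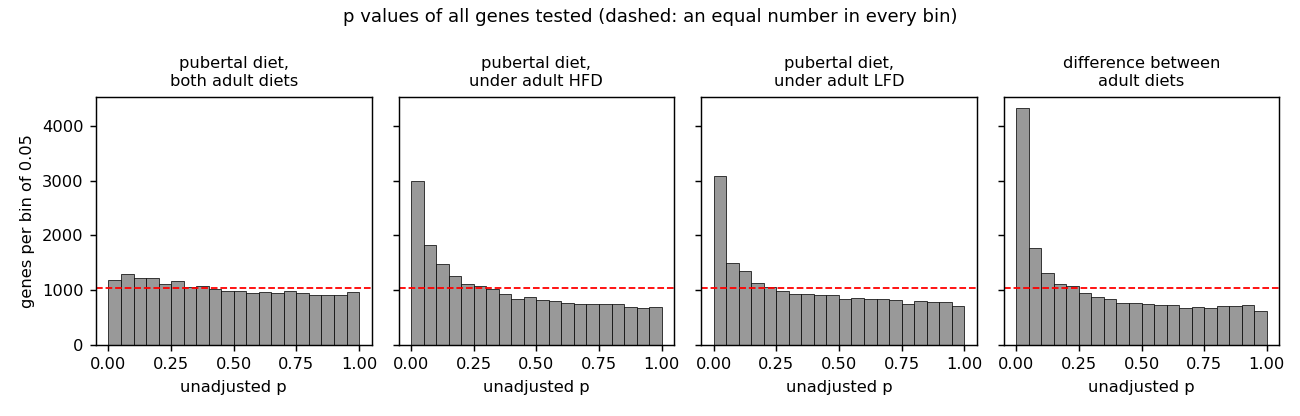
Histograms of unadjusted p values over the 20810 genes tested, in bins of 0.05 (x axis, p; y axis, genes per bin), for the effect of peripubertal diet over both adult diets, under adult HFD, under adult LFD, and for the difference between the adult diets. The dashed line marks an equal number in every bin. The first panel holds 1193 genes in its first bin, against 3003, 3083 and 4322 in the others.

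The genes with the smallest p values are described by value only. Thy1, a surface glycoprotein of T cells and of fibroblasts whose probe lies at chr9:43856591-43856650 (mm9), had log2 ratios from -0.24 to 1.29 (median 0.83) in the 9 tumors after peripubertal HFD. In the 9 tumors after peripubertal LFD its log2 ratios ran from -1.45 to -0.000147 (median -0.31). The arms overlapped through 3 tumors after peripubertal HFD, HFD-LFD tumor MSU_26 at -0.24 and HFD tumors MSU_62a and MSU_93, both at -0.02. The fitted log2 difference of Thy1 was 1.24 (SE 0.26, 95% interval 0.68 to 1.79, limma adjusted p = 0.832). It was 1.40 under adult HFD and 1.03 under adult LFD, and within the scan sessions the difference of the arm means was 1.30, 0.55 and 1.32.

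Atp6v0d2, a subunit of the vacuolar proton pump that is abundant in osteoclasts and some macrophages, had log2 ratios of -2.39 to -0.27 (median -1.07) after peripubertal HFD. After peripubertal LFD the range was -3.08 to -1.30 (median -2.31), and 6 of those 9 tumors were well above background. The difference was 1.09 (SE 0.24), with overlapping arms, and 2.41 in the second scan session against 0.62 and 0.68 in the others. Prrx2, a homeobox gene of mesenchymal cells, had values in 7 tumors of each arm, from -1.54 to 0.21 after peripubertal HFD and from -2.86 to -1.21 after LFD. Its difference was 1.31 (SE 0.30), the largest among the 10 genes named in this direction, and the arms overlapped. Rarb, a retinoic acid receptor, had log2 ratios of -2.75 to -0.66 after peripubertal HFD and of -3.49 to -2.71 after LFD. Only HFD tumor MSU_62a lay inside the LFD range, and the difference was 0.96 (SE 0.24).

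The other 6 genes named in this direction had differences of 0.56 to 1.18. The log2 difference was 0.73 (SE 0.18) for Clcn5, an endosomal chloride transporter, and 0.63 (SE 0.15) for Tnfrsf13b, a B cell receptor for the cytokines BAFF and APRIL. It was 0.56 (SE 0.14) for Pik3r5, a regulatory subunit of a phosphoinositide 3-kinase of white blood cells, and 0.75 (SE 0.19) for Asap1, an activator of Arf GTPases. Zfp783, a zinc finger gene, had a difference of 1.18 (SE 0.28), but its sign was not shared by the second scan session (-0.05). Mcoln2, an endolysosomal cation channel, had a difference of 0.92 (SE 0.21), and its arms did not overlap, as described below.

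In the other direction, Esm1 (chr13:114008204-114008263, mm9), which encodes endocan, a proteoglycan secreted by sprouting endothelium, was measured in 7 tumors of each arm. Its log2 ratios ran from 0.58 to 2.15 (median 0.91) after peripubertal HFD and from 1.46 to 3.17 (median 2.52) after LFD. HFD tumors MSU_67 at 2.15 and MSU_84 at 1.63 overlapped with LFD-HFD tumors MSU_45 at 1.46 and MSU_42 at 1.93. The fitted difference was -1.28 (SE 0.30, limma adjusted p = 0.832), and within the scan sessions it was -1.47, -0.44 and -1.63.

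Ahcy, the hydrolase of S-adenosylhomocysteine, had log2 ratios of -1.92 to -0.78 after peripubertal HFD and of -1.58 to -0.19 after LFD, a difference of -0.85 (SE 0.20). LFD tumor MSU_137 at -1.58 and LFD tumor MSU_105 at -0.82 lay inside the HFD range. Pcca, a subunit of propionyl-CoA carboxylase, ran from -1.50 to -0.31 after peripubertal HFD and from -0.55 to -0.09 after LFD, and its difference was -0.70 (SE 0.17). HFD tumor MSU_62a, at -0.31, was the only tumor of its arm inside the LFD range. The difference was -0.48 (SE 0.12) for Nat2, an arylamine N-acetyltransferase, and -0.43 (SE 0.10) for Fam120b. It was -0.44 (SE 0.11) for Dnaaf4, a dynein assembly factor, and -0.39 (SE 0.10) for Wbp4, a splicing factor. It was -0.56 (SE 0.14) for Srp54a, of the signal recognition particle, -0.73 (SE 0.19) for Akap17b and -0.65 (SE 0.16) for Slc18b1, a vesicular transporter. The adjusted p of all 20 genes was 0.832. All 20 had the same sign under each alternative and without each tumor, 19 had it in all 3 scan sessions, and 7 lacked the 4 tumors of slide 6. The genes were picked for small p and equal sign under both adult diets, so that this stability of sign is partly given by the choice. Within the first and second sessions the arms also lay on separate slides.

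**Figure D2:**
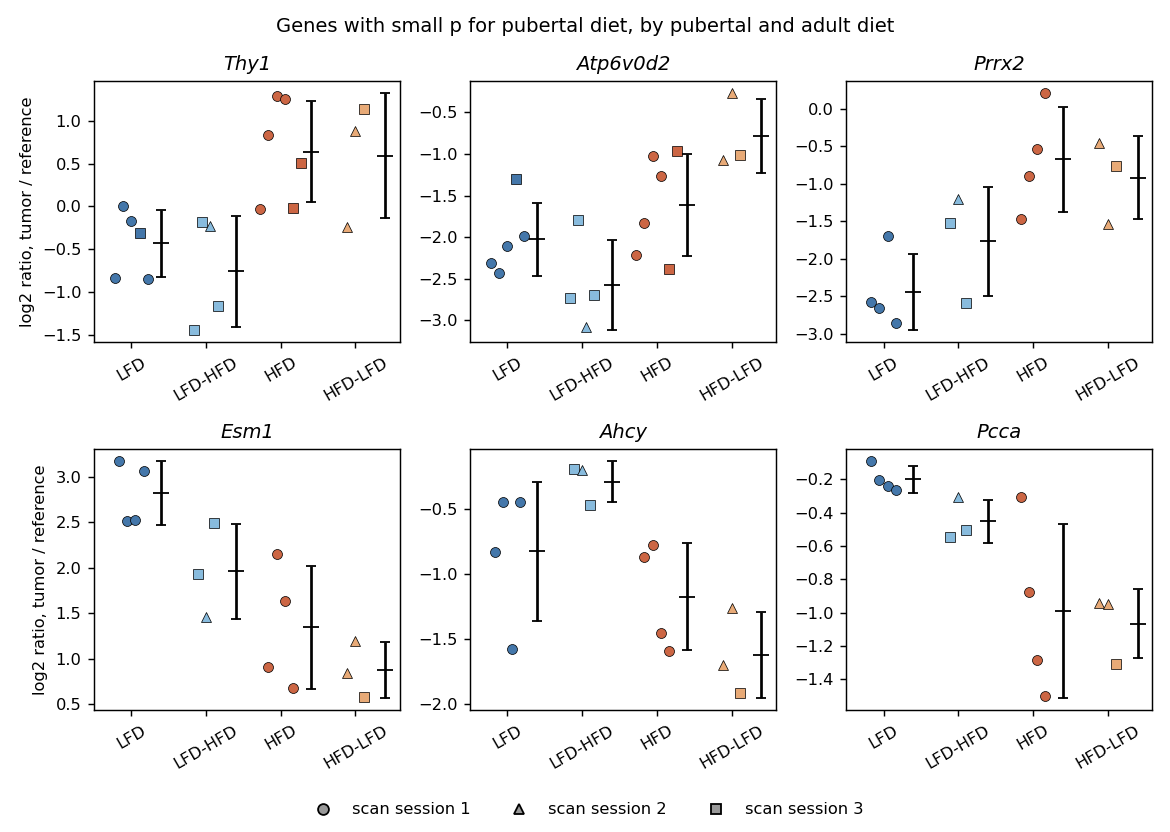
Log2 ratio of tumor over reference (y axis) for 6 of the genes with the smallest p, by group (x axis), 1 point per tumor, with the marker shape for the scan session and bars for mean and SD. Thy1, Atp6v0d2 and Prrx2 have their higher values mostly after peripubertal HFD and Esm1, Ahcy and Pcca after peripubertal LFD, and in all 6 the arms overlap.

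In 7 genes (0.0336% of those tested) the 9 or fewer measured tumors of one arm all lay beyond those of the other, 1 above (0.00481%) and 6 below (0.0288%). They were chosen here after their values were seen, and each had 7 values per arm because its probe lay in the rows masked on slide 6. The 1 above was Mcoln2, with 0.295 as the lowest value after peripubertal HFD and 0.287 as the highest after LFD, a gap far smaller than the SD within the arms (0.478 and 0.283). The 6 below were Fgf8, a secreted fibroblast growth factor, Srp54a, Ap5m1, a subunit of an endosomal adaptor complex, Tmsb15l, Rps15a-ps6 and 1700001L05Rik. For Fgf8 the values ran from -0.02 to 1.02 after peripubertal HFD and from 1.04 to 2.61 after LFD. For Srp54a they ran from -0.08 to 0.24 and from 0.295 to 0.997.

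Lists of cell types and pathways were described by counts and medians, beside the median over all genes of -0.0037. Over all genes, 10240 of 20810 had a positive difference and 5.73% had p under 0.05. Epithelial differentiation lists lay at the 2 ends of the order. Of 23 squamous differentiation genes tested, 21 had a positive difference (median 1.14), but only Sprr1a, a precursor of the cornified envelope, had p under 0.05 (difference 2.13, SE 0.87). Of 24 luminal and hormone-responsive genes, 23 had a negative difference (median -0.64), and 2 had p under 0.05. These were Gata3, a luminal transcription factor (-0.62, SE 0.25), and Esr1, the estrogen receptor (-1.02, SE 0.43). The squamous median was 1.59 under adult HFD and 0.79 under adult LFD. The luminal median was -1.085 under adult HFD but -0.08 under adult LFD. No gene of either list, nor of any other list, was called in the main effect.

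Taken over both adult diets, the squamous and luminal medians were smaller in size without HFD tumor MSU_86. The squamous score, the mean of the listed genes after centring, was 4.65 in HFD tumor MSU_86, 3.51 in HFD-LFD tumor MSU_59b and 2.09 in LFD tumor MSU_137, and between -1.35 and 0.61 in the other 15. Both arms thus held tumors at the high and the low end. Without MSU_86 the median squamous difference was 0.56. The luminal score was lowest in HFD tumors MSU_86 (-2.69) and MSU_96 (-1.62), followed by LFD tumor MSU_28 (-0.91). Without MSU_86 the median luminal difference was -0.42. The lower luminal scores were not limited to these tumors. Only 1 tumor after peripubertal HFD scored above the median of the LFD arm (0.58), and the HFD median was -0.06, though the arms overlapped. Scores of the 7 tumors with masked rows rest on fewer genes than those of the others.

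Fibroblast and T cell lists had positive medians as well. Of 26 fibroblast and collagen genes, 22 had a positive difference (median 0.59), with p under 0.05 for Thy1, the collagen-binding proteoglycan Lum (1.73, SE 0.50), Col1a1 (1.45, SE 0.53) and Col6a2 (0.80, SE 0.32). The fibroblast score ran from -0.84 to 1.35 (median 0.49) after peripubertal HFD and from -1.01 to 0.35 (median -0.36) after LFD. The 4 highest scores were those of the HFD tumors MSU_86, MSU_62a, MSU_67 and MSU_84, all scanned in the first session on 1 slide, and in the last session alone the median difference was 0.07.

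Of 20 T cell genes, 16 had a positive difference (median 0.52). Those with p under 0.05 were Cd5 (1.16, SE 0.32), Cd2 (0.82, SE 0.30), the regulatory T cell factor Foxp3 (0.35, SE 0.14), Cd3d (0.92, SE 0.41) and the kinase Lck (1.09, SE 0.50). Gzmb, the protease of cytotoxic granules, had a difference of -0.47 (SE 0.19). The T cell score was 1.63 in HFD-LFD tumor MSU_58 and at most 0.48 in the other 17, and without MSU_58 the median difference was 0.19. Thy1, which is also a T cell gene, was 0.88 in MSU_58 but 1.29 in HFD tumor MSU_84, whose T cell score was -0.24. The part of fibroblasts and T cells in the Thy1 values was not tested.

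Of 38 proliferation genes, 35 had a positive difference (median 0.41) and 7 had p under 0.05. Among them were the transcription factors E2f1 (0.42, SE 0.16), Mybl2 (0.62, SE 0.24) and Foxm1 (0.45, SE 0.18), the proliferation antigen Mki67 (0.60, SE 0.25) and the replication licensing genes Cdt1 (0.40, SE 0.18) and Mcm3 (0.44, SE 0.20). The proliferation score ran from -0.77 in HFD tumor MSU_62a to 1.098 in HFD tumor MSU_96, so that both extremes came from a single group. In 8 tumors after peripubertal HFD it exceeded the median of the LFD arm (-0.27), though the arms overlapped. All 4 LFD-HFD tumors had negative scores (-0.61 to -0.25), as did 3 of the 5 LFD tumors. The median difference was 0.55 under adult HFD and 0.01 under adult LFD, a contrast for which the gene-wise test between adult diets called none of the 38.

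**Figure D3:**
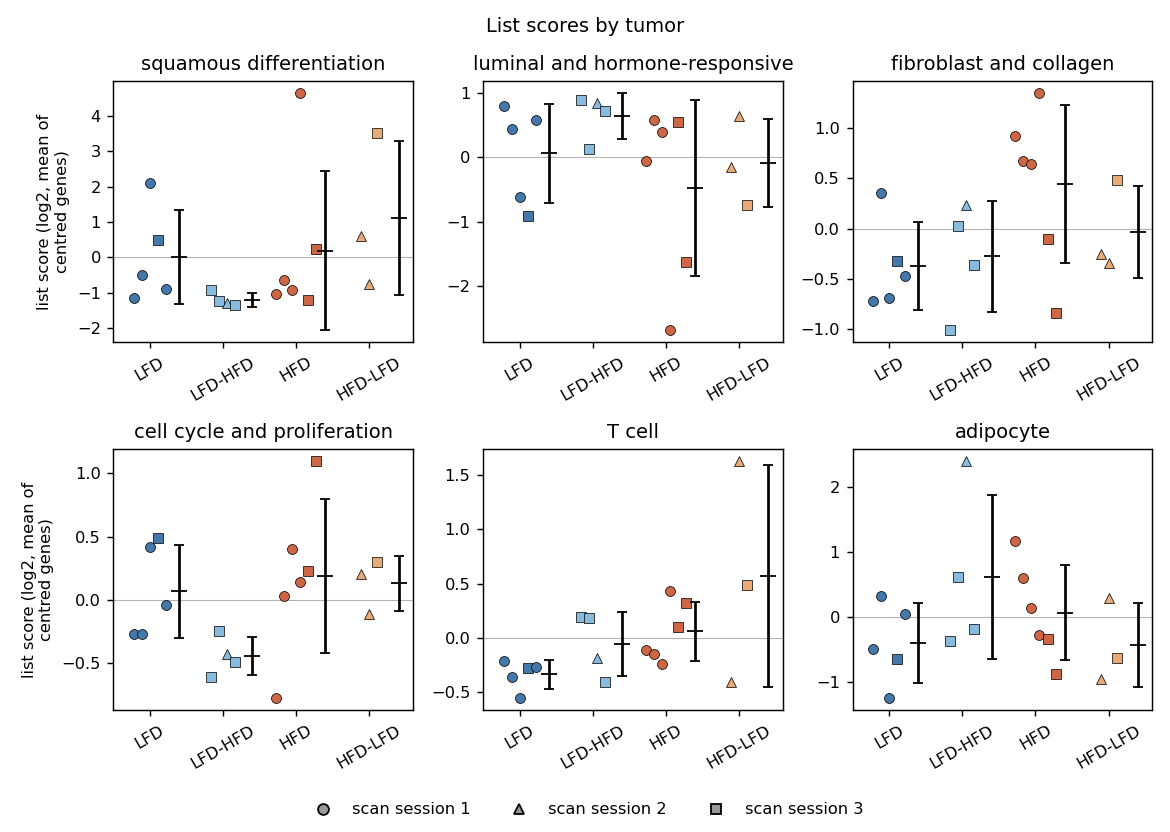
Scores of 6 gene lists (y axis, mean of listed genes after centring, log2) for each late tumor by group (x axis), with marker shape for the scan session and bars for mean and SD. The squamous panel is led by 3 tumors at 4.65, 3.51 and 2.09, and the T cell panel by 1 HFD-LFD tumor at 1.63.

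Wnt signaling genes had a median of 0.16, with 26 of 42 positive and p under 0.05 for the receptor Fzd1 (0.80, SE 0.25), the nuclear effectors Lef1 (1.103, SE 0.37) and Tcf7 (1.40, SE 0.47), and the modulator Sfrp2 (0.81, SE 0.30). Macrophage genes had a median of 0.15, with 18 of 24 positive and p under 0.05 for the scavenger receptor Msr1 alone (0.52, SE 0.20). Genes of alternative macrophage activation had a median of 0.10, with Mgl2 (0.61, SE 0.27) and Trem2 (0.56, SE 0.25). Chemokines had a median of 0.17, with Cxcl14 (0.55, SE 0.22), Ccl9 (0.60, SE 0.27) and Cxcl5 (1.54, SE 0.71). B cell and plasma cell genes had a median of 0.10, with 6 of only 9 tested positive and none at p under 0.05.

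Lipid metabolism was described by 4 lists. The medians were -0.06 for 22 genes of fatty acid synthesis, 0.17 for 29 genes of cholesterol synthesis and LXR targets, and 0.01 for 30 genes of fatty acid oxidation. Insig1, which retains the sterol sensor in the endoplasmic reticulum, had a difference of 0.43 (SE 0.20), and Srebf1, the lipogenic transcription factor, of -0.30 (SE 0.14). Adipocyte genes had a median of -0.47 with 15 of 19 negative, but LFD-HFD tumor MSU_45 scored 2.39 against at most 1.16 elsewhere, and without it the median was 0.0073.

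The remaining lists had medians between -0.24 and 0.26. Interferon-stimulated genes were negative in 25 of 29 (median -0.24), with no gene at p under 0.05, and the median was 0.22 without the last scan session. Skeletal muscle genes were positive in 19 of 22 (median 0.26), and LFD tumor MSU_122a and HFD-LFD tumor MSU_26 stood apart with scores of 2.09 and 1.76. Milk protein genes had a median of -0.20. Medians lay between -0.03 and 0.10 for hypoxia, p53 targets, the aryl hydrocarbon receptor battery, ErbB, basal, acute phase, endothelial and insulin-like growth factor (IGF) genes. Single genes of these lists with p under 0.05 included Nqo1, a quinone reductase (-0.81, SE 0.27), Erbb4 (-0.76, SE 0.28), Irs2, an insulin receptor substrate (0.90, SE 0.32), and Cnn1, a smooth muscle and myoepithelial gene (-2.40, SE 1.04). Of 26 lists, 9 had a median of 1 sign under all alternatives and without each tumor. They were the squamous, luminal, fibroblast, T cell, proliferation, Wnt, B cell and both macrophage lists.

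**Figure D4:**
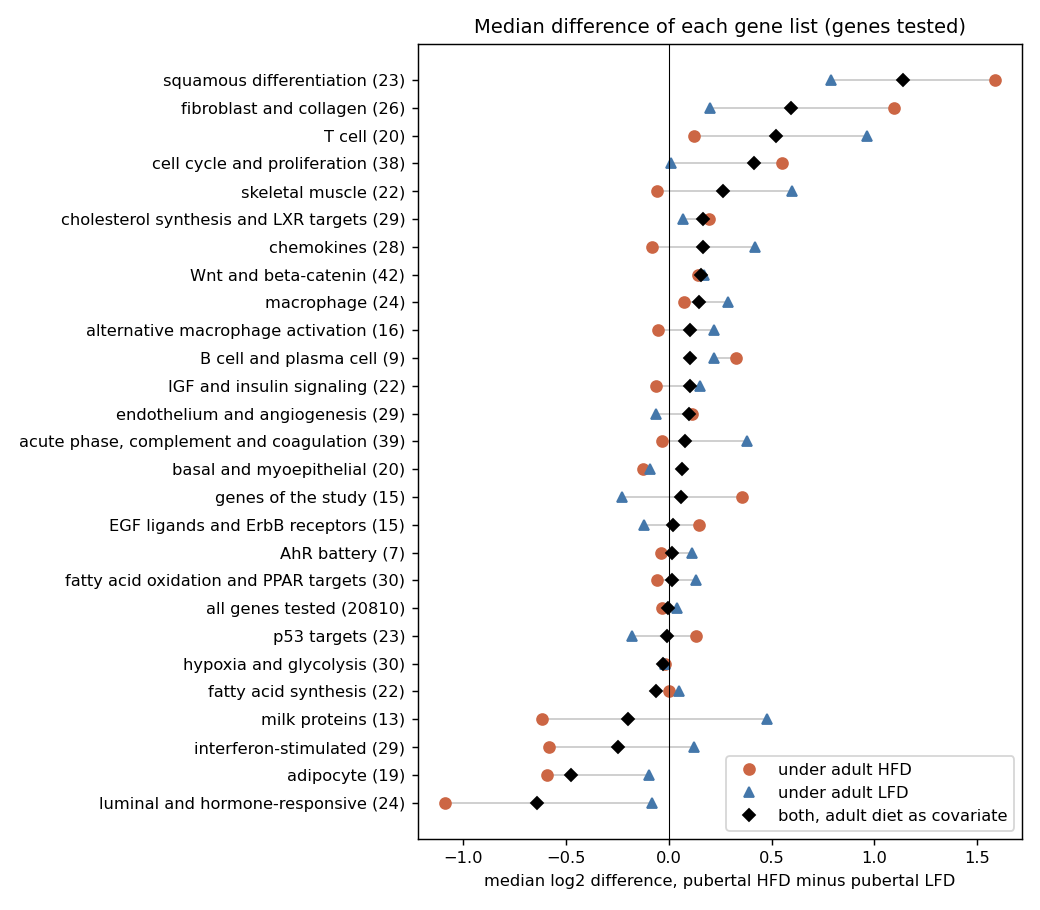
Median log2 difference of each gene list, peripubertal HFD minus LFD (x axis), over both adult diets and under each adult diet, with the number of genes tested in parentheses. Squamous differentiation (1.14) and luminal genes (-0.64) mark the ends for both adult diets together, and for T cell genes the medians are 0.12 under adult HFD and 0.96 under adult LFD.

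Of 20 genes that the study named or stained for, 15 could be tested, and Pgr, Ccl22, Ccl20, Brca1 and Bmp10 did not pass the filter on low signals. None was called. Esr1 ran from -0.85 to 2.15 (median 1.22) after peripubertal HFD and from 0.13 to 2.90 (median 2.15) after LFD. The arms overlapped over most of their range, and the difference was -1.02 under each adult diet. Ntf3, the neurotrophin-3 gene, ran from -2.89 to 0.05 and from -3.18 to -0.76, with a difference of 0.86 (SE 0.39), and was well above background in 8 of 9 and 5 of 9 tumors. The intervals of some others show what sizes remain possible for markers the study followed by staining. They were -0.45 to 0.44 for Adgre1, the macrophage antigen F4/80, -0.40 to 0.47 for Pecam1, the endothelial antigen CD31, -0.22 to 0.31 for the receptor Erbb2, and -0.57 to 0.16 for Ctnnb1, encoding beta-catenin. Adgre1 kept its sign in only 13 of 21 alternatives. Arg1, which the study also stained, had differences of -0.76 to -0.40 over the alternatives, with a lowest limma adjusted p of 0.615.

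The effect of peripubertal diet was then read under each adult diet. Under adult HFD (6 HFD against 4 LFD-HFD tumors) 0 genes were called (0%), although 3003 (14.4%) had an unadjusted p under 0.05. The sessions were not balanced in this contrast. The first held 4 of the HFD tumors, the second 1 LFD-HFD tumor, and the third 2 HFD and 3 LFD-HFD tumors. The reference channel alone called 1313 of 20810 genes under adult HFD. Under adult LFD (3 HFD-LFD against 5 LFD tumors) 133 genes (0.639%) were called, 79 higher (0.380%) and 54 lower (0.259%) after peripubertal HFD. Nor were the sessions balanced under adult LFD, since 4 of the 5 LFD tumors were scanned in the first session and 2 of the 3 HFD-LFD tumors in the second. With session as a block 0 genes were called, without the last session 14 and without the second 10. With the block, 73 of the 133 could be fitted and all 73 kept their sign. The reference channel alone called 3743 of 20810 genes in this contrast. Of the 133 genes, 114 had the opposite sign in Cy3 and 53 were called there. The ratio subtracts Cy3, so that an opposite sign is partly given by picking genes on their ratio. The tumor channel alone called 15 genes, 11 of them among the 133. Of the 133, only 6 had the same sign under adult HFD, and 125 were also called for the difference between adult diets. Over all genes the sign was shared by 40.1%, and the correlation of the 2 effects across genes, which share no tumor and are not independent replicates, was -0.08.

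Esm1 was among the 133. The 3 HFD-LFD tumors had log2 ratios of 0.85, 1.19 and 0.58, and the 4 measured LFD tumors 3.17, 2.52, 2.52 and 3.07. The groups did not overlap, and the difference was -1.95 (SE 0.35, limma adjusted p = 0.0329) against -0.62 under adult HFD. Esm1 lies in a row masked on slide 6, so that all 4 LFD values came from the first scan session and the HFD-LFD values from the later sessions, and diet and session cannot be told apart for this contrast. The difference between those effects was not called (1.33, adjusted p = 0.152). The Esm1 call held in 20 of 35 alternative settings, those without 1 tumor included, and was lost, among others, without the last scan session (-1.80, adjusted p = 0.139) and with the tumor channel alone (-2.38, adjusted p = 0.0661). It was also lost without any 1 of 9 tumors (MSU_105, MSU_122a, MSU_137, MSU_34, MSU_26, MSU_58, MSU_59b, MSU_42 or MSU_84), with differences of -2.10 to -1.80 and adjusted p of 0.0502 to 0.123. Gsk3b, a kinase that marks beta-catenin for degradation, was also called under adult LFD, close to the threshold (1.09, SE 0.22, limma adjusted p = 0.046). So was 1 gene of the IGF list. Whether the Gsk3b call held in the alternative settings was not tested.

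The difference of the peripubertal diet effect between the adult diets was called for 792 genes (3.81%), 275 positive (1.32%) and 517 negative (2.48%). In this design the difference equals continuous diets against switched diets, a positive value being higher in the HFD and LFD groups than in HFD-LFD and LFD-HFD. Switched and continuous tumors did not overlap in 252 genes (1.21%). The scan sessions divided along the same line, since the first held only continuous and the second only switched diets, and the earlier experiment likewise contributed only continuous diets. Diet switching and these sessions cannot be told apart except through the last session. Diet switching and cohort cannot be told apart there either, because the tumors of the earlier experiment were not known. Of the principal components, the second (13.3% of the variance) was 23.7% explained by switching and 7.0% by session, the third (11.6%) 9.1% and 75.0%, and the fourth (8.2%) 48.3% and 35.7%.

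Aldh18a1 (chr19:40624730-40624767, mm9), an enzyme of proline synthesis, had the smallest p. Its log2 ratios were 0.62, 0.63, 0.65 and 0.65 in the LFD tumors and -0.07, -0.07, 0.14 and -0.73 in the HFD tumors, all from the first session. They were -1.07, -1.28 and -1.104 in the LFD-HFD and -1.52, -1.81 and -1.55 in the HFD-LFD tumors. No switched tumor reached the continuous range, and the difference was 3.23 (SE 0.26, limma adjusted p = 0.000415).

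Ints8, of the Integrator complex, had a difference of 1.98 (SE 0.20) and the long noncoding RNA Tug1 one of 2.95 (SE 0.39). The opposite sign was found for Pde5a, the phosphodiesterase of cyclic GMP (-3.26, SE 0.30), the histone gene H4c4 (-4.80, SE 0.50), and the growth factor gene Igf2 (-1.41, SE 0.19). For Tug1 the mean of all its probes gave 0.60 (adjusted p = 0.243), so that its probes did not share the size of the difference. Tug1 and Igf2 could be read within the last session, where both kinds of diet were scanned. Its continuous tumors all lay on slide 6 and its switched tumors, except MSU_24, on slide 7. Diet switching and slide were thus nearly the same division in that session. Tug1 was -0.99 to -0.47 in the 4 switched tumors and -0.01 to 0.80 in the 3 continuous ones. Igf2 was -3.80 to -3.38 in the switched and -4.21 to -4.03 in the continuous tumors. The groups did not overlap there for either gene, but the test in that session alone called neither (adjusted p = 0.175 and 0.198). Aldh18a1, Ints8, Pde5a and H4c4 lie in rows masked on slide 6, which held the continuous tumors of that session, so that all their continuous values came from the first.

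The reference channel moved with these calls. By the labels, Cy3 held the same reference RNA on every array. For the same contrast, 6500 of 20810 genes were called in Cy3, against 0 for the main effect of peripubertal diet. Of the 792 genes, 638 had the opposite sign in Cy3 and 372 were called there. The ratio subtracts Cy3, so that an opposite sign is partly given by picking genes on their ratio. In the tumor channel alone, 309 genes were called, 104 of them among the 792, and 707 of the 792 kept their sign. The normalized log2 Cy3 signal of Igf2 was 12.97 to 13.10 in the LFD tumors of the first session, 10.96 to 11.05 in the switched tumors of the second and 13.29 to 13.41 in the switched tumors of the last. In the continuous tumors of the last session it was 13.34 to 13.37, inside the range of the switched ones, while the Igf2 ratios did not overlap there. That of H4c4 was 12.91 to 13.12 in the first, 10.50 to 10.58 in the second and 12.97 to 12.99 in the last session. For Igf2 the tumor channel alone gave a difference of 0.26 (adjusted p = 0.892), a reversed sign. It did not call Tug1 (1.56, adjusted p = 0.114), Pde5a (-1.27, adjusted p = 0.271) or H4c4 (-2.19, adjusted p = 0.24). It called Aldh18a1 (2.97, adjusted p = 0.00223) and Ints8 (1.62, adjusted p = 0.0161). In Cy3 all of these genes but Igf2 were called, with the sign opposite to the ratio, such as Tug1 (-1.50, adjusted p = 0.000703) and Pde5a (1.90, adjusted p = 0.000238).

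**Figure D5:**
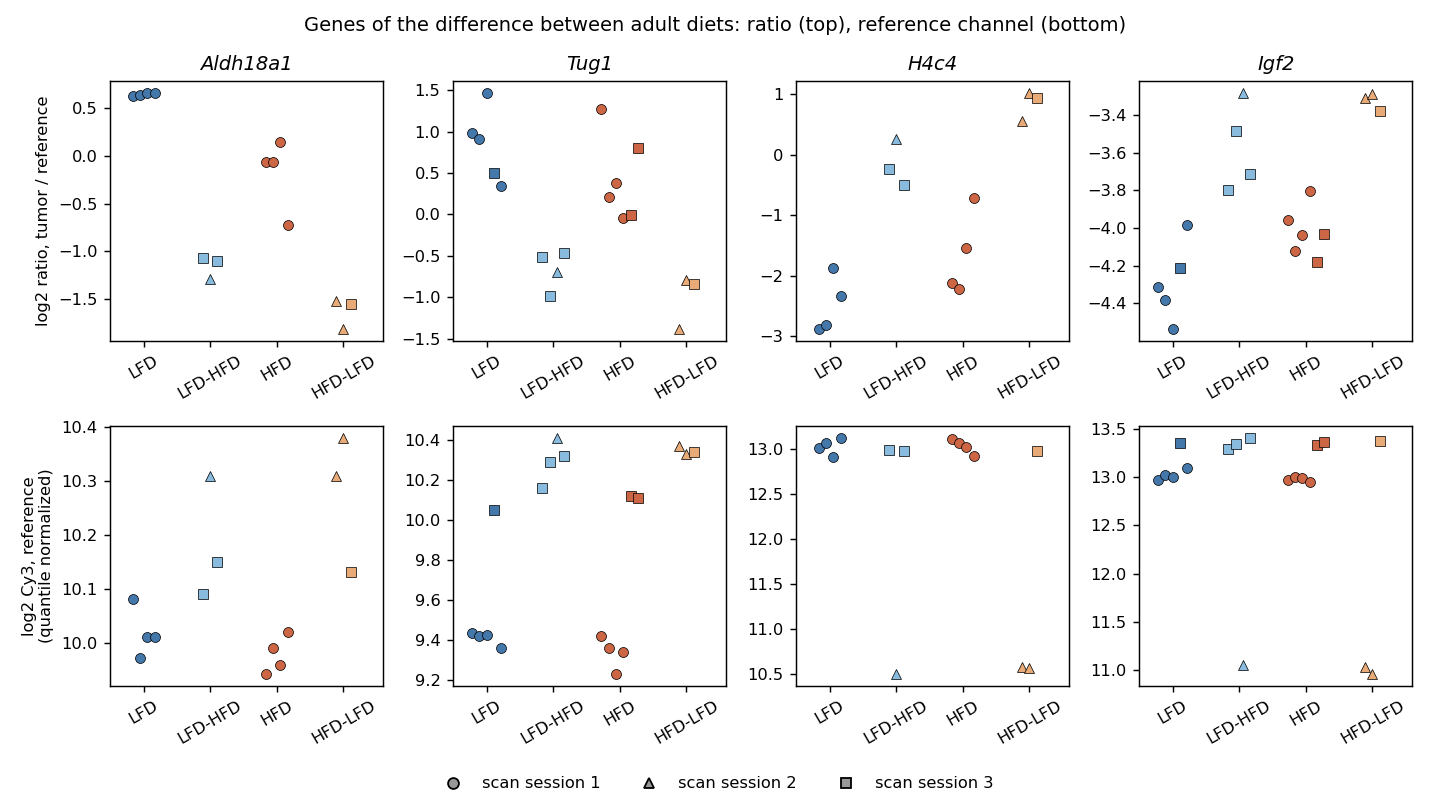
Log2 ratio (top) and normalized log2 Cy3 reference signal (bottom) of Aldh18a1, Tug1, H4c4 and Igf2 for each late tumor by group, with marker shape for the scan session. The Cy3 signals of H4c4 and Igf2 are about 10.5 and 11.0 in the 3 tumors of the second session and near 13 in the others.

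The count of called genes was smaller in every setting that used the sessions. In these session settings, though not with the tumor channel alone, the differences of Aldh18a1, Ints8, Tug1, Pde5a, H4c4 and Igf2 stayed of similar size wherever fitted. That of Ccl17 did not, at -1.78 in the full comparison, -1.14 without the last session and -2.81 in it alone. With session as a block 0 of the 15191 genes that could be fitted were called. Of the 792 genes, 513 could be fitted there, all 513 had the same sign, and 340 had an unadjusted p under 0.05. Tug1 had a difference of 2.53 with that block and Igf2 of -1.26. In the last session alone 5 of 11078 genes were called. Without the last session 9 were called, and the differences were 3.40 for Aldh18a1, -5.17 for H4c4 and -3.17 for Pde5a. These settings reuse tumors of the full comparison, with fewer tumors or genes. Genes in rows that were never masked were called in 4.13% of 10811, those masked on slide 6 in 4.97% of 5619, and those masked on slide 7 in 1.53% of 4380. In the 6 early tumors, which were not part of the fit and contrast 3 continuous HFD with 3 HFD-LFD tumors over the same first and second sessions, 786 of the 792 genes (99.2%) had the same sign, against 72.6% of all genes. The early comparison repeats the same division by session.

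Of the 585 listed genes tested, 13 (2.22%) were called for this difference, a smaller share than the 3.81% of all genes. Of these 13, 12 had a negative sign, as had 517 of the 792. Negative were Ccl17, a chemokine that attracts regulatory T cells (-1.78, SE 0.44, adjusted p = 0.0354), the milk fat gene Btn1a1 (-0.92), the Fc receptor Fcgr1 (-1.59), the lipogenic factor Mlxipl (-0.67), Cpt1b of mitochondrial fatty acid import (-1.30), Gsk3b (-1.43), the Wnt coreceptor Lrp6 (-1.60), Igf2, Igfbp1 (-1.19), the p53 inhibitor Mdm4 (-1.88), the nucleic acid sensor Zbp1 (-1.52) and Serpina1a (-1.07). The insulin receptor gene Insr was positive (1.69, adjusted p = 0.0243). Of 47 replication-dependent histone genes, 8 (17.0%) were called, beside 3.81% of all genes, and all 8 were higher in switched diets. They were H1f4, H2bc18 and the H4 genes H4c3, H4c4, H4c11, H4c12, H4c14 and H4f16. Whether the probes of these H4 genes read separate transcripts was not tested. For H4c4 the tumor channel alone gave -2.19 (adjusted p = 0.24). The histone group was chosen here after its values were seen.

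Ccl17 (chr8:97335770-97335829, mm9) was one of the genes the study had followed, by PCR in mammary glands before tumors developed, whereas the values here are from late tumors. Its log2 ratios were 1.32, 2.59 and 2.90 in the HFD-LFD tumors and 1.37, 1.55, 0.50, 0.65 and 1.25 in the LFD tumors. Under adult HFD they were 1.49, 1.72, 1.28 and 1.73 in the LFD-HFD tumors and 0.56 to 1.41 in the HFD tumors. HFD-LFD tumors MSU_58 and MSU_59b were above all other tumors, whereas the third lay inside the LFD range. The effect of peripubertal HFD was 1.21 (SE 0.33, adjusted p = 0.0859) under adult LFD and -0.57 (adjusted p = 0.376) under adult HFD, and 0.21 (SE 0.30) over both. The call for the difference held in 18 of 37 alternative settings. It was lost without any 1 of 9 tumors (MSU_137, MSU_24, MSU_42, MSU_45, MSU_58, MSU_59a, MSU_59b, MSU_67 or MSU_84), with differences of -1.87 to -1.46 and adjusted p of 0.0518 to 0.0939. It was -2.81 (adjusted p = 0.103) in the last scan session alone and -1.14 (adjusted p = 0.51) without it.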

How the data were processed

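The authors hybridized tumor RNA and Universal Mouse Reference RNA to 2-color whole mouse genome arrays of Agilent. The deposited files hold spot intensity values in both channels as read by Agilent Feature Extraction (11.0.1.1 in the file headers, 8.5.1.1 in the submitters' processing notes), and the scanner software's log10 ratio per spot, deposited in the same files, served as an alternative only. Mean and background intensities were corrected by normexp (offset 50, fitted without masked spots) and loess normalized within arrays in R 4.3.3 with limma 3.58.1. Masked spots stayed missing. Of 39429 probes, 27097 exceeded a background-subtracted signal of 10 in both channels on at least 80% of late arrays, with at least 2 values per group. The brightest probe stood for a gene, and 16969 of 20810 genes carried a RefSeq name. Probe positions are those of the files (mm9).

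The main effect was fitted with peripubertal and adult diet as terms, the other contrasts from 4 group means. Genes were called at a Benjamini-Hochberg adjusted p under 0.05. Named genes were, in each direction, the 10 with the smallest p among RefSeq-named genes (no predicted-gene names) of equal sign under both adult diets, as none was called, then the gene with the smallest p of each list, the genes of the study, and 3 per direction for the difference between adult diets. Others are named by their list and p, or as stated. Members and lists were chosen with earlier results of these data known. Alternatives covered background correction, normalization, filter, mask, imputation, probe choice, array weights, variance trend, slide, scan session, the covariate, all 24 arrays in 1 fit, and leaving out each tumor. The fits were tested on simulated data.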

Additional observations from a re-analysis of the deposited data

Results flagged for a closer look

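Among 172 pairs of a named gene and a group of 4 to 6 tumors, 10 held a tumor whose gap to its nearest neighbor was large for the group's range by Dixon's criterion, a number close to the 1 in 20 that chance flags. After peripubertal HFD these were HFD tumor MSU_86 for Pik3r5 (1.51) and for Pgf (-0.106). In the LFD group they were MSU_28 for Dnaaf4 (0.876) and Fzd1 (0.813), and MSU_122a for Myh1 (-1.15) and Adgre1 (0.811). In the LFD-HFD group they were MSU_42 for Fam120b (0.679), MSU_24 for Pmvk (-0.97), and MSU_45 for Fzd1 (-0.805) and Erbb4 (0.13). All are log2 ratios of tumor over reference.

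The effect of peripubertal diet differed between the adult diets by the test of that difference in 792 genes. The log2 differences between the effects were 3.23 for Aldh18a1, 1.98 for Ints8, 2.95 for Tug1, -3.26 for Pde5a, -4.80 for H4c4, -1.41 for Igf2 and -1.78 for Ccl17. The first and second scan sessions were arranged along the same line, and the earlier experiment contributed only continuous diets, as described above. The reference channel called 6500 genes for this contrast.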

How the results depend on the processing

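No paired analysis was possible because replicate numbers follow the order of deposition and pair no samples. The main effect kept 0 called genes in all alternatives, with a lowest adjusted p of 0.146 (array weights), and had 1193 genes at an unadjusted p under 0.05. The other counts moved. Under adult HFD the 0 calls became 136 with all 24 arrays in 1 fit, 4765 with array weights, 1 with dimmed rows kept, 307 with median centring (4 of them higher), 1 with a variance trend, 3003 at an unadjusted p, and 0 to 4 without each tumor, 4 without MSU_86 and 2 without MSU_62a. Under adult LFD the 133 calls became 603 with all arrays, 744 with array weights, 22 with dimmed rows kept, 27 with median centring, 15 with Cy5 alone, 43 with slide as a random block, 0 with session as a block, 20 in the last session alone, 14 without it, 10 without the second session (chosen after seeing the data), 3083 at an unadjusted p, and 14 (without MSU_58) to 414 (without MSU_86) without each tumor. For the difference between adult diets the 792 calls became 1724 with all arrays, 3641 with array weights, 410 with dimmed rows kept, 309 with Cy5 alone, 371 with slide as a random block, 0 with session as a block, 5 in the last session alone, 9 without it, 14 without the second session, 4322 at an unadjusted p, and 265 (without MSU_42) to 1313 (without MSU_86) without each tumor. The cause of these moves was not tested, except that session settings use fewer arrays or genes. Igf2 reversed with Cy5 alone (0.26, adjusted p = 0.892), and Tug1, Pde5a and H4c4 were not called there. Median centring shifted the median of all genes by more than 0.1 under adult HFD and for the difference between adult diets, where 45 of its 571 calls were positive against 275 of 792. Signal over background limits Atp6v0d2, Rarb, Ntf3 and Erbb4, which were not well above background in every tumor.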
